A study of Drosophila melanogaster with 2 samples.

Results

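The genes examined here, 9 in number, belong to the spindle checkpoint and its kinetochore machinery, and were read for chromatin recovered with the tagged zinc finger protein BuGZ in Drosophila melanogaster embryos: BuGZ (CG17912) itself, its partner Bub3, BubR1, Bub1, Mad1, mad2, rod, Zwilch and the kinetochore motor gene cmet. They were chosen by name, as 9 of 18277 annotated genes, and all 9 symbols were found once in the Ensembl annotation of the same assembly (dm6). For each gene, the nearest summit to any of its transcription start sites (TSS) was located in the list of reproducible peaks, and candidate regions within 250 bp and 1000 bp of a TSS were read from the pooled list and from each replicate's own list. The single group held 2 replicates of whole embryos of mixed sex, collected at 0 to 16 h, from 1 transgenic line that stably expresses BuGZ with GFP fused at its C terminus. Whether the native BuGZ copies remain in that line was not given in the sources used here. Whole embryos of this age mix cell types and cycling with non-cycling cells, and the lists hold no expression values against which the tissue could be checked. The labels describe both libraries as input controls, although their antibody label names CG17912 and their peak lists were derived against a separate control alignment, the same one for both replicates. They were treated as immunoprecipitates. With no second condition, no test between samples was possible.

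The spindle checkpoint delays anaphase in a dividing cell until every kinetochore has captured microtubules. Unattached kinetochores recruit Bub3 with Bub1 and BubR1, and Mad1 with Mad2, which together lead to an inhibitor of the anaphase-promoting complex, the ubiquitin ligase that starts chromosome separation. In human and frog cells BuGZ binds Bub3 through a conserved motif, brings it to kinetochores and binds spindle microtubules, and it has zinc fingers of a type often found in DNA-binding proteins.

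Promoters of 7 of the 9 genes lie head to head with a neighbour on the other strand, with 82 to 778 bp between the 2 start sites. The share of all genes with such a neighbour was not computed, so this number is a description only. The sequences below are the stretches upstream of a start site that the results turn on, read from the dm6 genome, each 5′ to 3′ on the strand of the named gene. Capitals mark matches on either strand to a fixed set of promoter motifs: TATCGATA, the DNA replication-related element (DRE) bound by Dref; CGATA, the core bound by BEAF-32; GTCACACT, a core of Motif 1; and TATAAA. Each DRE also holds the CGATA letters. The BuGZ stretch (chr2L:16743106-16743404, plus strand) begins with the 93 bases of the reproducible peak beside LSm7 and ends at the base before the BuGZ start. The cmet stretch (chr2L:11269003-11269269, minus strand) is the upstream part of its reproducible peak. Those of Bub3 (chr3R:29675422-29675650, minus strand), Zwilch (chr3R:31213377-31213457, minus strand) and rod (chr3R:31580700-31580950, plus strand) fill the gap to the neighbouring start, and that of mad2 (chr3L:5813094-5813193, minus strand) is the 100 bp before its start.
BuGZ: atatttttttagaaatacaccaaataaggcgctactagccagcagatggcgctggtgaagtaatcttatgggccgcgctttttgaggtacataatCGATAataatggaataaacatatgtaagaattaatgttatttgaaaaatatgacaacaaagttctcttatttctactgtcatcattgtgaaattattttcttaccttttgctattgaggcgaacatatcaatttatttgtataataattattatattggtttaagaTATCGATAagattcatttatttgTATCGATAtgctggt
cmet: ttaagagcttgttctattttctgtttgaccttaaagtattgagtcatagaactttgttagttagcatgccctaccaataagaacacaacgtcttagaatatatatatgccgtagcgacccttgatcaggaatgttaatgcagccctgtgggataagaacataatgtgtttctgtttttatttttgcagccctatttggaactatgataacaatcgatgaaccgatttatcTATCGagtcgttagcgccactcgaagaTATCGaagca
Bub3: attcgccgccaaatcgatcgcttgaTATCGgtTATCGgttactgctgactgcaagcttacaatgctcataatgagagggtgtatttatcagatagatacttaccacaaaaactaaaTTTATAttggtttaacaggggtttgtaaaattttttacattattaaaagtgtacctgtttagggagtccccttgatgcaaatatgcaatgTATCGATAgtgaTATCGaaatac
Zwilch: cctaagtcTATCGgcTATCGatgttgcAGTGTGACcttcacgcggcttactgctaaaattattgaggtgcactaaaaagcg
rod: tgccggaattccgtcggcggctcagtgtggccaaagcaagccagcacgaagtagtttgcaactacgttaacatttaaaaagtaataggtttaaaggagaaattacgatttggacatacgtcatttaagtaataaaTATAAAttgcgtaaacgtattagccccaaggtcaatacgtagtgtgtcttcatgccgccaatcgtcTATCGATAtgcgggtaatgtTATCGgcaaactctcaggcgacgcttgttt
mad2: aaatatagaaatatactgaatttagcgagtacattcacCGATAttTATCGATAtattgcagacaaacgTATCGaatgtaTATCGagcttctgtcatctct

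Only cmet, which encodes a CENP-E-type kinesin of the kinetochore, had a reproducible summit within 250 bp of a start site, making 1 of the 9 genes. Over all genes the share was 9.43% (95% Wilson interval 9.01 to 9.86, counting error over genes only), and over protein-coding genes it was 11.6%. Within 1000 bp the number was 2, cmet and BuGZ, against 14.0% of all genes. A share of 9 genes this near the background is not a result about them.

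The cmet peak was among the weaker ones. Its summit lay 100 bp upstream of the start (interval 11268934 to 11269269 on 2L), and its signal value was 109.8, at rank 1970 of 2413. Signal values are the authors' own, on a scale not stated, and were compared only within a list; in the reproducible list they ran from 101.3 to 1538.3 with a median of 134.3. In replicate 1 the region had a signal value of 62.2, at rank 1580 of 30000, with its summit at the same base. In replicate 2 it had 48.8, at rank 3552, with the summit 164 bp upstream. Both replicates therefore listed the region in the upper part, and replicate 2 alone would not have placed it among as many top regions as there are reproducible peaks. The deposited -log10 q-value was 3.62 in replicate 1 and 3.96 in replicate 2, the ceiling of each list. The head-to-head neighbour cana, a second CENP-E-like kinesin gene, starts 778 bp away, which puts the summit 678 bp from it. Replicate 1 also listed a separate region 176 bp upstream of cana, at rank 10670. The pooled list and replicate 2 held candidates 201 and 161 bp from a cana start. Among the promoter peaks close to cmet by signal value, those above it lay at Ctps, at Slu7 with Pkc98E and at Charon with CG4887, and those below it at lncRNA:CR44380 and at RpS14a, all with signal values of 109.8 to 110.0. Their ranks in the replicates ran from 1459 to 4490 for replicate 1 and from 892 to 2810 for replicate 2, so the cmet region, at 3552, stood farther down in replicate 2 than any of these neighbours.

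BuGZ, the gene of the tagged protein, had a stronger peak that lay just outside the 250 bp limit and nearer to another gene. The summit was 256 bp upstream of the BuGZ start and 49 bp upstream of LSm7, which encodes a subunit of the ring that binds U6 snRNA. This interval (16743106 to 16743198 on 2L) was narrow, 93 bp against a median of 336 bp, and lay wholly between the 2 start sites, 305 bp apart. Its signal value was 176.7, at rank 610 of 2413. Replicate 1 listed it with a signal value of 120.3 at rank 343, and replicate 2 with 72.0 at rank 1291. Their intervals were 290 and 376 bp wide, the median width of each list, and both spanned the LSm7 start. The narrow width was thus that of the pooled call. In the replicates the summits fell 258 and 251 bp from the BuGZ start and 47 and 54 bp from that of LSm7. Both replicates thus ranked the peak above the cmet region and placed its summit on the LSm7 side. By the rule of 250 bp it counted for LSm7 only.

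Nearer to the BuGZ start, the signal was lower and differed between replicates. The pooled list held one region 47 bp upstream (signal value 38.6, rank 14538, -log10 q 0.63), which spans both DREs printed above. Neither replicate's own list held a counterpart of this upstream region. A second pooled region, 214 bp downstream, was higher (signal value 73.8, rank 4529, -log10 q 2.78). Replicate 2 listed the downstream region with a signal value of 38.2 at rank 6053. In replicate 1 the nearest counterpart, 150 bp downstream, had only 15.8 at rank 28486, close to the end of its list. Along the 10300 bp of the gene, 6 summits were listed in each replicate, the best at rank 4324 in replicate 1 and 4578 in replicate 2, and 3 in the pooled list, the best at rank 3824. The other listed genes, all shorter, held 0 to 2 in each of these lists. Summits per length over all genes were not computed, so these counts are a description only. How the tagged copy in this line bears on signal over the gene was not tested.

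**Figure D1:**
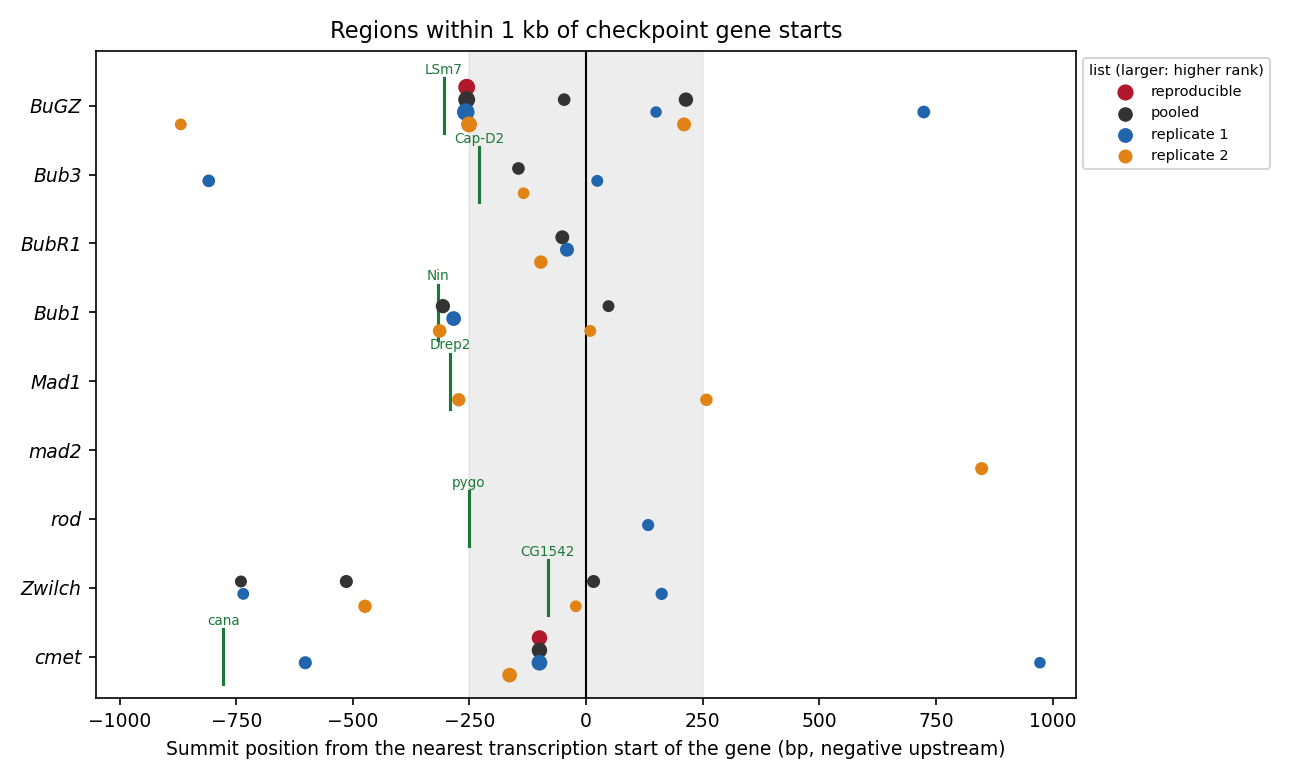
Positions of region summits (x axis, bp from the gene's nearest start site, negative upstream) for each gene (y axis), in the reproducible, pooled and replicate lists, with larger points for higher ranks. The grey band is 250 bp to either side and green bars are the start sites of head-to-head neighbours; the BuGZ peak sits 256 bp upstream, beside LSm7, and the only other reproducible summit is that of cmet.

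Candidate regions, most of them weak, were found within 250 bp of a start site at 6 of the 9 genes in each list. In the pooled list these were BuGZ, Bub3, BubR1, Bub1, Zwilch and cmet, against 40.7% of all genes and 47.0% of protein-coding genes. Replicate 2 listed the same 6 (40.1% of all genes), and replicate 1 listed rod in place of Bub1 (36.3%). Within 1000 bp the number was 6 in the pooled list (58.0% of all genes), 7 in replicate 1 (57.3%) and 8 in replicate 2 (57.1%). Each candidate list holds exactly 30000 regions and reaches down to -log10 q-values of 0.18 (pooled), 0.21 (replicate 1) and 0.32 (replicate 2), so a place in it is a weak statement. Among as many top regions as there are reproducible peaks, cmet was the only one of the 9 within 250 bp in replicate 1 (9.08% of all genes), and none was in replicate 2 (9.29%). Within 1000 bp these were BuGZ and cmet in replicate 1 (13.8% of all genes) and BuGZ in replicate 2 (13.8%).

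**Figure D2:**
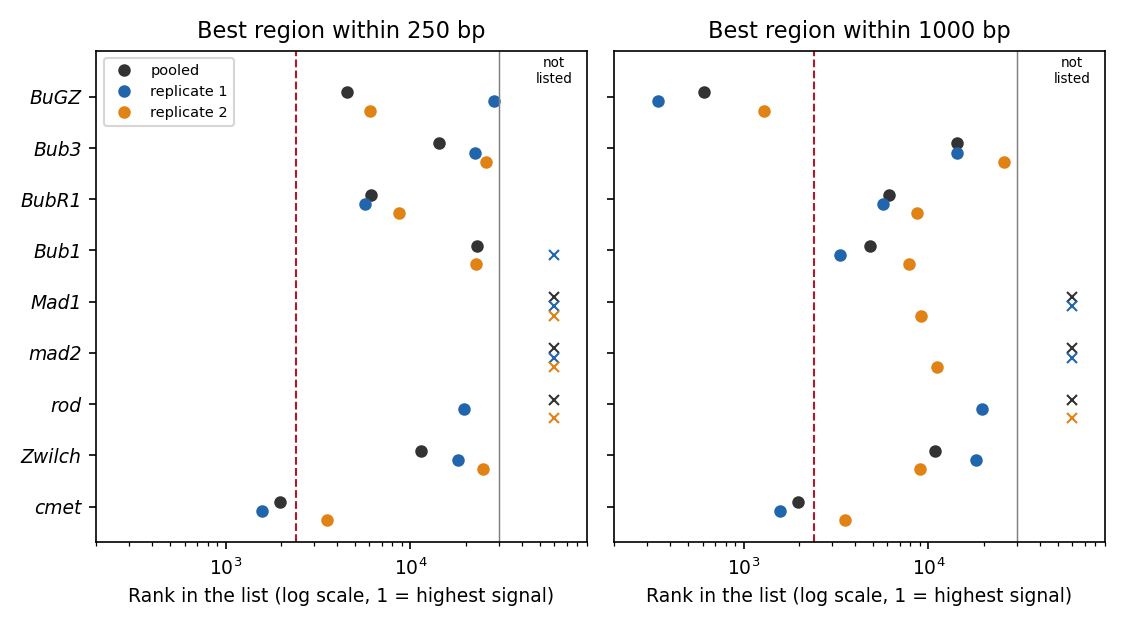
Rank of the highest region within 250 bp (left) or 1000 bp (right) of each gene's start sites in the pooled list and in each replicate (log scale, 1 is the highest signal). The dashed line is rank 2413, the grey line the end of the lists at 30000, and crosses mark genes with no listed region; only BuGZ and cmet have points left of the dashed line.

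Bub3, the WD40 protein that carries Bub1 and BubR1 to kinetochores, had no candidate ranked above 14225, which was a replicate 1 region 809 bp upstream in the coding sequence of Cap-D2. The pooled list placed a summit 145 bp upstream of the Bub3 start (signal value 38.9, rank 14358, -log10 q 0.64), which is 85 bp upstream of Cap-D2, a condensin subunit gene whose start is 230 bp from that of Bub3 on the other strand. Replicate 2 had its summit 134 bp upstream at rank 25795, and replicate 1 had one 24 bp downstream at rank 22326. The replicates thus placed their summits on opposite sides of the start, and both regions were far down their lists, at 74.4% and 86.0% of the length. The nearest reproducible summit was 41717 bp away, 242 bp upstream of Obp99b.

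BubR1, the checkpoint component that binds and inhibits the anaphase-promoting complex with its activator, carried a candidate close to its start in the pooled list and in both replicates. The summit lay 51 bp upstream of its start in the pooled list (signal value 62.4, rank 6125), 41 bp upstream in replicate 1 (33.4, rank 5685) and 97 bp upstream in replicate 2 (31.9, rank 8657). The deposited -log10 q-values were 2.06, 1.47 and 1.84. No other region lay within 1000 bp of BubR1, and none had its summit within the gene. Among the 9 genes it was the farthest from a reproducible summit, at 102226 bp.

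Bub1, the kinase of the checkpoint, has 2 annotated starts, and the higher regions beside it lay at its neighbour Nin, a ninein homologue of the centrosome. At Nin the pooled summit was 10 bp upstream of its start (signal value 71.2, rank 4814, -log10 q 2.55), with replicate 1 at 33 bp (44.2, rank 3308) and replicate 2 at 3 bp (33.5, rank 7864). These summits were 284 to 314 bp from the Bub1 upstream start. At the Bub1 downstream start the pooled list had a summit 48 bp downstream at rank 22802 and replicate 2 one 9 bp downstream at rank 22609. Replicate 1 listed none there. The nearest reproducible summit was 63486 bp away.

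Mad1 and mad2, which encode the kinetochore receptor and the protein it converts to its inhibitory form, had no candidate within 250 bp in any list. At Mad1, replicate 2 alone listed regions within 1000 bp. One was 273 bp upstream and 18 bp upstream of the head-to-head neighbour Drep2 (signal value 31.0, rank 9136), and one 258 bp downstream in an intron (22.9, rank 16023). The nearest reproducible summit to Mad1 was 6488 bp downstream, 20 bp inside the start of Pkn, which encodes a protein kinase. For mad2, replicate 2 alone listed a region, 848 bp downstream in its 3′ UTR (signal value 28.0, rank 11094). A reproducible peak 2178 bp downstream of the mad2 start (signal value 129.8, rank 1318) lay at the shared promoter of S6k and kri, 16 bp inside S6k and 58 bp upstream of kri. In the replicates the best region within 200 bp of that summit had ranks of 1538 and 1409.

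Both rod and Zwilch encode subunits of the RZZ complex, which brings dynein to kinetochores. At rod, replicate 1 alone had a candidate within 1000 bp, 133 bp downstream (signal value 18.9, rank 19515). Past the other end of the gene, 273 bp beyond the annotated 3′ end of rod, lay one of the strongest peaks of the whole list (31588396 to 31588667 on 3R), with a signal value of 609.6 at rank 23 of 2413. It ranked 43 in replicate 1 (271.9) and 11 in replicate 2 (345.9). Its summit was 7566 bp from the rod start and 156 bp upstream of CG1635, inside the antisense transcript asRNA:CR45190. Its plus strand is shown because it is the strongest peak next to any of the 9 genes. Its capitals mark a pair of CAGCTG matches, an E-box form. Both lie near the end of the interval, more than 100 bp from the summit. Within 100 bp of this summit there was no CAGCTG, while 13.7% of all reproducible summits held one in that window.
rod downstream: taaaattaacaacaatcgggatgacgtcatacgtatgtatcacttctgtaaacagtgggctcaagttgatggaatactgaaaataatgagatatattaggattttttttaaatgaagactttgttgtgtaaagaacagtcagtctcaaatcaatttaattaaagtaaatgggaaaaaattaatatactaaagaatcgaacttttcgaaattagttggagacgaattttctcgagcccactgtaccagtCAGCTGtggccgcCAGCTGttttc

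Zwilch, whose start is only 82 bp from that of CG1542, had a pooled summit 16 bp downstream of its start (signal value 44.0, rank 11416, -log10 q 0.89). Replicate 1 placed the summit 162 bp downstream at rank 18044 and replicate 2 22 bp upstream at rank 24824. The highest pooled region within 1000 bp lay not at the start but in the coding sequence of CG1542, 514 bp upstream (signal value 45.1, rank 10919). Replicate 2 also had its highest region there, 474 bp upstream (signal value 31.3, rank 8983, -log10 q 1.80). In replicate 1 the region at the start was the highest. The nearest reproducible summit to Zwilch was 2648 bp upstream, 82 bp upstream of CG15561 (signal value 174.2, rank 635).

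Across the 9 genes the distance to the nearest reproducible summit ran from 100 bp to 102226 bp with a median of 6488 bp. The median over 13945 protein-coding genes on chromosomes with a peak was 13444 bp, and its quartiles were 3447 and 37345 bp. The order from nearest was cmet, BuGZ, mad2, Zwilch, Mad1, rod, Bub3, Bub1 and BubR1. Without replicate 1, among the top regions of replicate 2 alone, cmet moved to 9225 bp, behind rod at 7575 bp, and Bub1 moved to 20411 bp, with its nearest region at vri and ahead of Bub3 at 41710 bp. Summits at cmet, BuGZ, Zwilch, Bub3 and BubR1 lay on the upstream side, and those at mad2, Mad1, rod and Bub1 on the downstream side. Of the protein-coding genes, 7.39% were nearer to a summit than cmet, 11.7% than BuGZ and 93.2% than BubR1. Apart from cmet, each of these summits had another gene's start as its nearest.

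**Figure D3:**
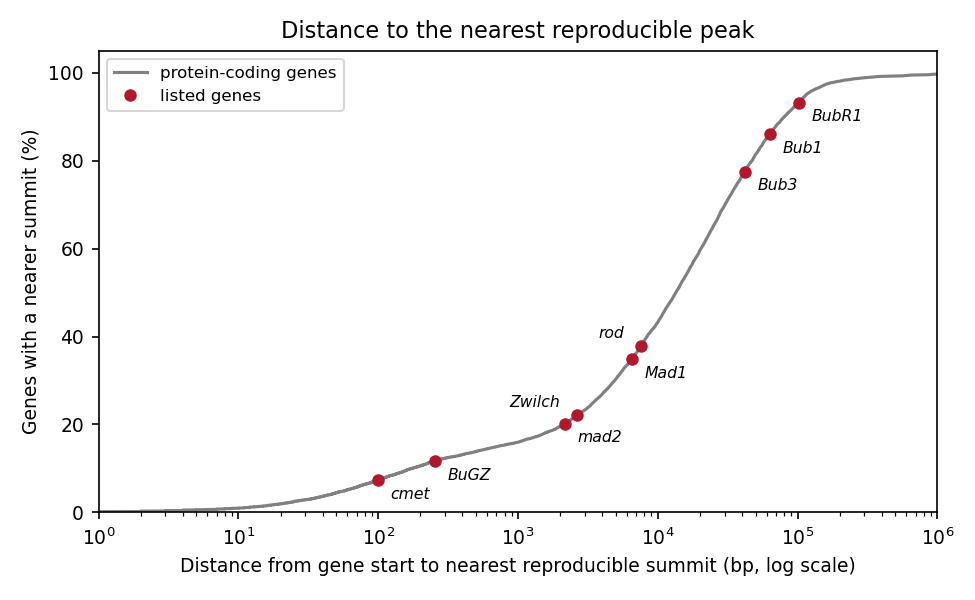
Distance from a gene's start to the nearest reproducible summit (x axis, bp, log scale) against the share of protein-coding genes with a nearer summit (y axis, %), with the 9 genes as red points on the grey curve. They run from cmet at 100 bp to BubR1 at 102226 bp, with 6 genes at or below 37.8% and 3 at or above 77.5%.

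In the pooled list the highest region within 1000 bp had its nearest start at the head-to-head neighbour for BuGZ (LSm7), Bub3 (Cap-D2), Bub1 (Nin) and Zwilch (CG1542), and at the gene itself for cmet and for BubR1, which has no head-to-head neighbour within 1000 bp. For Zwilch this rested on pooled signal values of 45.1 and 44.0, and the replicates differed. In replicate 1 the highest region was nearest to Zwilch itself, and in replicate 2 to CG1542 (31.3 against 17.6 at the Zwilch start). The share over all head-to-head genes was not computed. Mad1, mad2 and rod had no pooled region within 1000 bp. Regions were counted for a gene by distance alone. For the 7 genes with a head-to-head neighbour, these lists do not show which gene a region between the starts serves. This holds for the cmet and BuGZ peaks too.

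A DRE within 250 bp before to 50 bp after a start was found at 6 of the 9 genes: BuGZ, Bub3, BubR1, Bub1, mad2 and rod. Over all 23697 start windows 6.77% held one, and counted by gene the share was 8.12% of all genes and 10.2% of protein-coding genes. BuGZ held 2, starting 38 and 15 bp upstream. The others held 1 each, at 23 bp for Bub3, 33 for BubR1, 55 for mad2, 50 for rod and 50 before the downstream start for Bub1, so all lay between 15 and 55 bp upstream. The shorter CGATA was present at all 9 genes, though not in the window of the Bub1 upstream start, and in 43.6% of all start windows. For motifs other than the DRE only the share of windows was computed, not the share of genes. Zwilch held the Motif 1 core, 54 bp upstream (4.96% of windows) and, 116 bp upstream, the palindromic E-box CACGTG (4.11%). The letters TATAAA occurred at Bub3, Bub1, Mad1 and rod (41.5% of windows). CAGCTG (16.6%), GAGAGAG (7.09%) and TCAGTT (26.4%) were at none of the 9, which says only that these letters are not in these windows.

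None of the 6 genes with a DRE had a reproducible summit within 250 bp, and cmet, which had one, held no DRE. BuGZ, with 2 DREs, fell just outside that limit, with its summit at 256 bp. Over all protein-coding genes, 19.9% of the 1420 with a DRE had a reproducible summit within 250 bp, against 10.7% of the 12548 without one. With only 6 genes, the absence of such a summit is not a result about them. Within 100 bp of the 2413 reproducible summits 5.68% held a DRE and 34.7% a CGATA. At the BuGZ peak that window held 1 CGATA and no DRE, and at the cmet peak 2 CGATA and no DRE. Around the replicate 2 summit of the cmet region, 164 bp upstream, it held no CGATA. Of the 9 lower pooled regions within 1000 bp of the genes, 3 held a DRE (at BubR1, at the BuGZ start and at the Bub1 downstream start) and 6 did not, among them the one at Bub3. The region at the BuGZ start had no counterpart in either replicate's list. The base composition of the peaks at BuGZ and cmet, 35.3% and 39.8% G or C within 100 bp of the summit, stood beside a median of 40.3% for all reproducible summits.

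**Figure D4:**
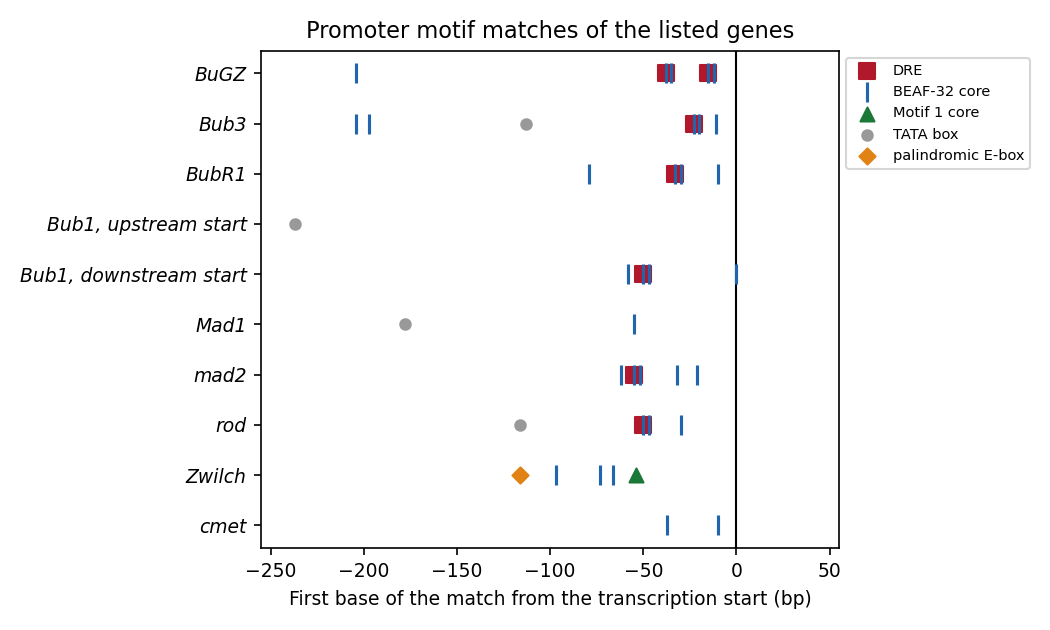
First base of each motif match (x axis, bp from the start site) in the promoter windows of the 9 genes, with the 2 Bub1 starts on separate rows. Red squares are DREs, found at 6 genes and 15 to 55 bp upstream; blue bars are CGATA, which also lies inside each DRE.

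Other genes of chromosome segregation were taken from lists of the checkpoint, the outer kinetochore, the centromere, the chromosomal passenger complex, the anaphase-promoting complex and sister chromatid cohesion. Of 46 such genes besides the 9 already described, 5 had a reproducible summit within 250 bp (10.9%) and 7 within 1000 bp (15.2%). Over all genes the shares were 9.43% and 14.0%, and over protein-coding genes 11.6% and 15.9%. The 7 include cana, whose summit, 678 bp away, is the cmet peak described above. The anaphase-promoting complex held 2 of 13, ida (5 bp, signal value 101.7) and Cdc16 (54 bp, 131.0). Cohesion held 3 of 10: the cohesin subunit genes SMC1 (62 bp, 110.8) and SA1 (143 bp, 114.1), and dmt (84 bp, 140.1), which protects cohesion. None of the 8 outer kinetochore genes, the 3 centromere genes or the 4 chromosomal passenger genes had one. Mps1, the kinase at the head of the checkpoint, had a summit 377 bp upstream (signal value 143.5, rank 1007). A pooled candidate lay within 250 bp at 33 of the 46 (71.7%, against 40.7% of all genes and 47.0% of protein-coding genes). The share was 56.5% in replicate 1 (protein-coding genes 42.1%) and 67.4% in replicate 2 (protein-coding genes 46.4%). Of the 46, 8 (17.4%) held a DRE, against 10.2% of protein-coding genes.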

How the data were processed

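Chromatin immunoprecipitation sequencing was made from 2 replicates of 1 group. The authors deposited peak lists in dm6 coordinates: 1 of reproducible peaks, 1 of pooled candidates and 1 per replicate. The deposited signal values (column 7) rank the regions, and the scale was not given in the sources used here. The deposited lists also give a -log10 q-value per region, and per the read-me texts each list used an alignment and a control alignment, the same control for all. Caller, aligner and reproducibility threshold were not given in the sources used here. Read depth is unknown, so no interval that needs it is printed.

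Summits (start plus offset) were measured to every start site of the Ensembl annotation with scripts whose distance search was tested on simulated data. Regions within 250 bp or 1000 bp were counted, ranks were by signal value, and Wilson intervals cover counting error over genes only. The reproducible peaks were identical to the top 2413 pooled regions. Motif letters were searched on both strands of the dm6 genome from NCBI RefSeq. Members and gene lists were chosen with earlier results of these data known. All 9 members were described, and the neighbours named were the promoter peaks next in rank, of which 1 is not reported here. Alternatives were other windows, the upper part of each list, protein-coding genes only, and each replicate left out. Whether the replicates came from separate collections was not stated.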

Additional observations from a re-analysis of the deposited data

How the results depend on the processing

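With 1 of the 9 genes within 250 bp of a reproducible summit at the outset, the number was 2 at 500 bp, 2 at 1000 bp and 0 among the 1206 strongest peaks. With one replicate's own top regions in place of the reproducible list, it ranged from 0 to 1, and it was 0 without replicate 1, where the nearest region to cmet was 9225 bp away and that to Bub1 20411 bp away, against 63486 bp. The pooled number of 6 became 1 among the top 2413 regions. Those regions are the reproducible peaks themselves, so this repeats the first count and is no separate check. For replicate 1 the 6 became 3 at 100 bp, 2 above the middle of the list and 1 among the top regions. For replicate 2 the 6 became 3 at 100 bp, 3 above the middle of the list and 0 among the top regions. The share over all genes moved from 9.43% to 11.6% with protein-coding genes only. The median distance of 6488 bp ranged from 6482 to 7575 bp with one replicate left out. The cause of these changes was not tested beyond the smaller windows and shorter lists themselves. No paired analysis was possible because the series has 1 group. Read depth is unknown, so its effect was not tested.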
